A study of Homo sapiens with 4 samples.

Results

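The 123 expressed genes of the long arm of chromosome 13 (13q) from 37.5 Mb to the end of the arm were described in 4 leukemia cell lines. They were chosen by position and level: the locus of the authors' Cuffdiff table had to start at or after 37.5 Mb in hg19, and the mean level over the lines had to be over 5 CPM (the HTSeq count scaled by the summed count of the library). The table held 282 such entries. Of these, 24 were left out by symbol (6 of them over 5 CPM), 135 were at 5 CPM or less, and 51 of those 135 had no count in any line. The members are 123 of the 10614 genes over 5 CPM and of the 23165 genes that both deposited tables share. The mean level and the place on the arm selected them, and the start was set with the levels of the lines known. Just inside the level threshold lay RAB20 at 5.17 CPM, ERCC5 at 6.07 CPM and LACC1 at 6.32 CPM. Just outside lay DLEU2 at 4.72 CPM, TRPC4 at 4.71 CPM and CAB39L at 4.36 CPM. Along the arm the first member was ALG5, which adds glucose to dolichol in the endoplasmic reticulum, and the last was CHAMP1, which attaches chromosomes to the spindle.

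All 4 lines come from precursor-B acute lymphoblastic leukemia and were cultured in RPMI with added fetal bovine serum. The group with the translocation t(4;11), a rearrangement of MLL, consists of RS4;11 and SEM, and the group without it of NALM6 and REH. The labels give no treatment and no time point. Each line is 1 model and 1 library, so 2 lines stand for each group, and p-values between the groups measure the spread between lines.

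The long arm of chromosome 13 holds several genes that are often lost in blood cancers. Among them are RB1, the retinoblastoma protein that holds back entry into the cell cycle, and the 13q14 stretch with DLEU1, DLEU2 and TRIM13, which loses a copy in many chronic lymphocytic leukemias. The arm also carries MIR17HG, the host transcript of the miR-17-92 cluster, whose microRNAs favour growth and survival of B cells.

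Library totals ran from 33620574 counts in SEM to 84212986 in REH, with 51872617 in RS4;11 and 44849858 in NALM6. A floor of 3 counts was 0.0578 CPM in RS4;11, 0.0892 in SEM, 0.0669 in NALM6 and 0.0356 in REH, and floors cover counting error only. Markers of B-cell precursors (8 of 8 detected in every line, PAX5 and EBF1 among them) showed the labelled lineage and summed to 1973 CPM in RS4;11, 1070 in SEM, 2285 in NALM6 and 2320 in REH. BLNK was nearly absent in SEM (0.178 CPM) and VPREB1 in REH (0.226 CPM). Markers of other cell types were low or absent: CD3D, CD3E, CD3G, ELANE, HBB, HBA1, PF4 and COL1A2 had 0 counts in all 4 lines. The 6 T and NK cell markers summed to between 0.981 and 26.1 CPM, the 5 myeloid markers to between 8.56 and 39.8 CPM, and the 5 erythroid and megakaryocyte markers to between 0.691 and 6.81 CPM. The stromal and epithelial list summed to 715 to 1192 CPM, nearly all of it VIM, an intermediate filament gene that white blood cells also express. In bulk RNA, fewer cells with a transcript and less of it per cell cannot be told apart.

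SEM stood below the other lines at most members, in every stretch of the arm beyond 37.5 Mb. The members took 0.737% of all counts in SEM, against 1.26% in RS4;11, 1.19% in NALM6 and 1.18% in REH. For each member, a line was compared with the median of the other 3 as log2 of (CPM + 1) over (median + 1), which understates differences of low genes. With 1 library per line this ratio is a description and has no test. The median ratio over the 123 members was -0.88 in SEM (0.542-fold, with the middle of the members between -1.14 and -0.52). It was 0.14 in RS4;11, 0.23 in NALM6 and 0.16 in REH. Over all 10614 genes the medians were -0.03 in SEM, -0.06 in RS4;11, 0.08 in NALM6 and 0.03 in REH. The ratios of the lines are not independent, because SEM is 1 of the 3 lines that each other line is set against. Without SEM the medians of the remaining lines were -0.05 in RS4;11, -0.01 in NALM6 and -0.04 in REH.

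By counts of members, SEM was lower by 1.5-fold or more in 88 of 123 and higher in 6. Over all genes these shares were 17.8% lower and 12.7% higher. RS4;11 was lower in 16 members and higher in 26 (all genes 17% and 10.6%). NALM6 was lower in 13 and higher in 26 (13.7% and 17.9%), and REH was lower in 6 and higher in 33 (15.4% and 20.8%). The higher members of REH lay mostly at low levels. They were 10 of the 62 members with the higher mean levels (16.1%) and 23 of the other 61 (37.7%). A gene at a low mean can pass the threshold through 1 line, and the part of this in REH was not tested. SEM was the lowest of the 4 lines in 91 members, or 74.0%, against 26.1% of all genes. In 112 members it lay below the median of the other lines.

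**Figure D1:**
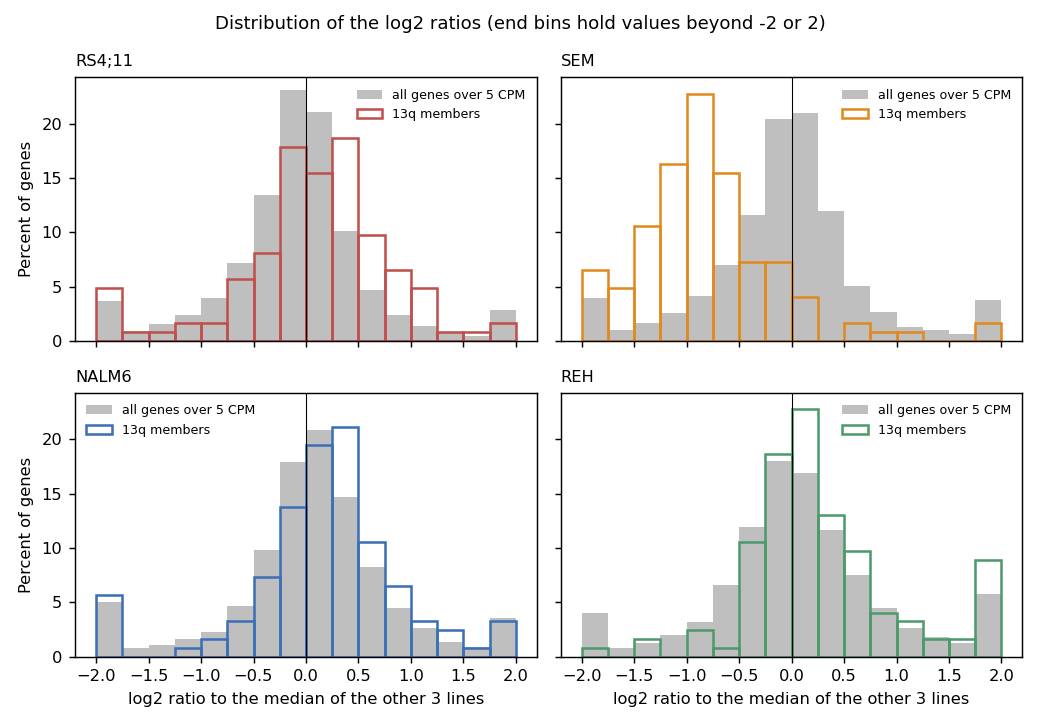
Distribution of the log2 ratio of each line to the median of the other 3 lines (x axis) as a percent of genes (y axis). Grey bars are the 10614 genes over 5 CPM and coloured outlines the 123 members of 13q; in SEM the outline is centred near -0.88, while in the other 3 lines its median lies between 0.14 and 0.23.

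The clearest members were those with near-equal levels in the other lines. In 56 members RS4;11, NALM6 and REH lay within 1.5-fold of each other, a choice that uses no value of SEM. For these SEM had a median ratio of -0.92 (0.530-fold, with the middle of the members between -1.08 and -0.72). SEM was lower by 1.5-fold or more in 46 of the 56 and higher in 0. Over the 4539 genes steady in the same way, the SEM median was 0.00 and 7.01% were lower. The lowest of the 56 was PCID2, a subunit of a messenger RNA export complex, at 58.4 CPM in RS4;11, 21.6 in SEM, 75.2 in NALM6 and 73.9 in REH. The highest was ALG5, the first gene of the set, at 38.3, 43.6, 28.9 and 36.9 CPM in the same order, and it was the 1 steady member at which SEM lay above the others.

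SEM also had the smallest library and the lowest sum of B-precursor markers, and the part of either in the result was not tested. The median ratio of SEM was -0.88 for the 62 members with the higher mean levels and -0.89 for the other 61. On 22 other chromosomes, the median ratio of SEM ran from -0.37 on chromosome 7 to 0.08 on chromosome 8.

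Followed along the arm in windows of 10 Mb, the SEM median was below 0 in each of the 8 windows. It was -0.93 from 37.5 to 47.5 Mb (33 members, ALG5 to ESD) and -0.92 from 47.5 to 57.5 Mb (29 members, SUCLA2 to SUGT1). The gene-poor middle held few members: -0.92 over 3 members to 67.5 Mb, -0.72 over 10 to 77.5 Mb, -0.63 over 7 to 87.5 Mb and -0.38 over 4 to 97.5 Mb. Towards the end of the arm the SEM median was -0.90 over 17 members (MBNL2 to ARGLU1) and -0.87 over 20 members (ABHD13 to CHAMP1). A running median over 9 neighbouring members was below 0 in SEM at 115 of 115 positions. It was lowest at SLC25A15, the mitochondrial ornithine carrier (-1.39), and highest at ITM2B, a membrane protein gene next to RB1 (-0.27). The longest unbroken run of members with SEM below the others held 34 genes, from FNDC3A at 49.6 Mb to LMO7 at 76.2 Mb. In the other lines no run on either side was longer than 11.

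The part of the arm before 37.5 Mb did not share 1 level in SEM. From 17.5 to 27.5 Mb, 26 genes passing the same filters had an SEM median of -0.75. From 27.5 to 37.5 Mb, 31 genes had an SEM median of 0.47, with 14 higher by 1.5-fold or more and 3 lower. By window medians SEM thus lay above the others from 27.5 to 37.5 Mb and below them on both sides. The start was chosen with this known. Single genes at the border did not all follow. RFXAP and SMAD9, both before the start, had SEM ratios of -0.56 and 3.13, and ALG5, the first member, had 0.23. Over the same windows RS4;11, NALM6 and REH had medians between -0.29 and 0.14.

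**Figure D2:**
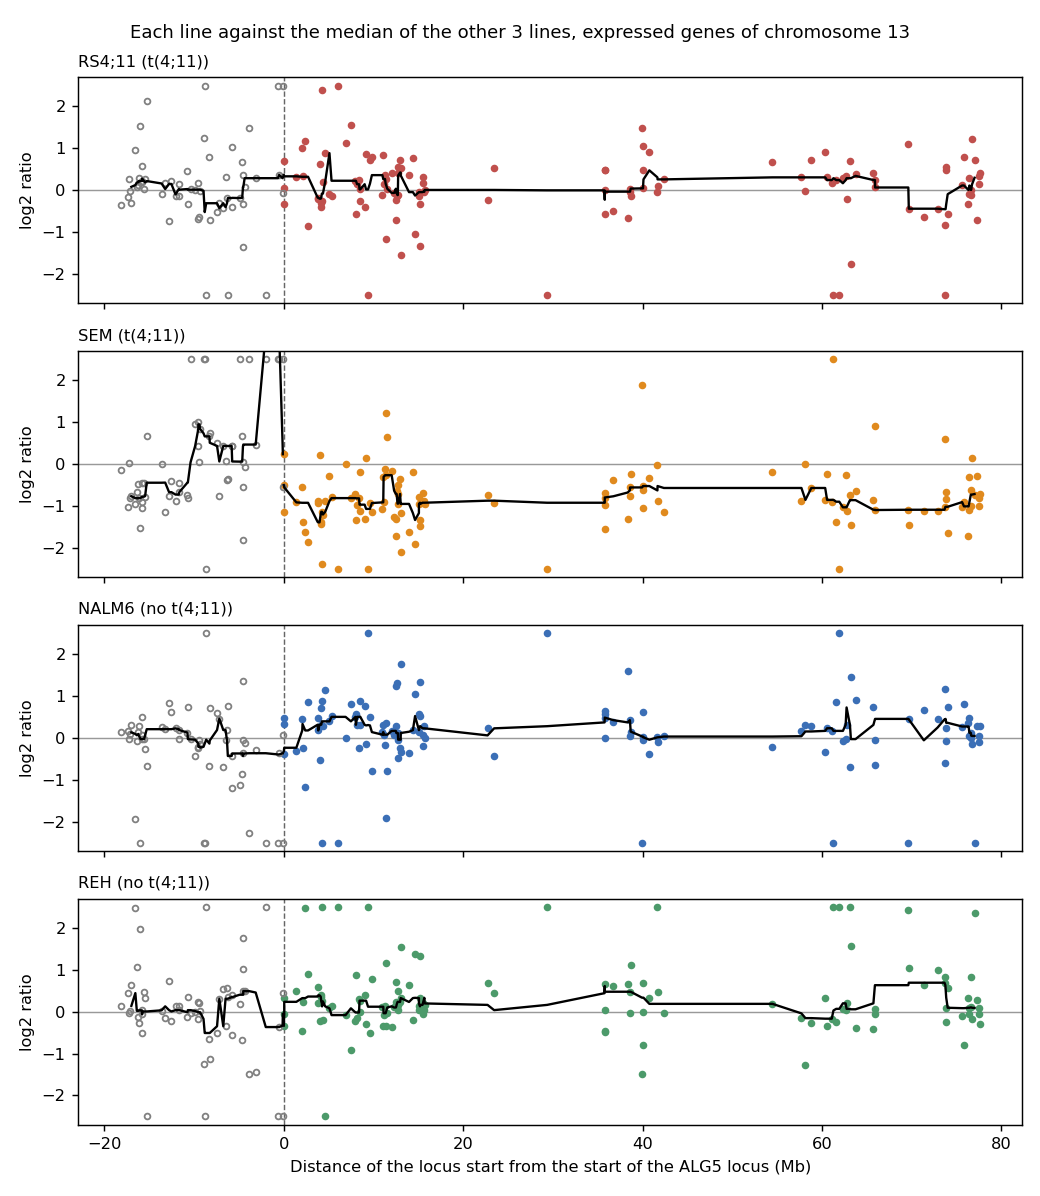
Log2 ratio of each line to the median of the other 3 lines (y axis, values beyond 2.5 drawn at 2.5) for each expressed gene of chromosome 13 against distance from the start of the ALG5 locus (x axis, Mb). Filled points are the 123 members, open points the 57 genes before them, and the line is a running median over 9 genes; in SEM it lies below 0 at every one of the 115 positions within the members.

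The 123 members were also described by role, in 9 gene lists that hold 108 of them. Each list had an SEM median below the all-gene value of -0.03, between -1.01 and -0.67. The lists are parts of the same members and some genes are in several lists. Low list medians in SEM thus follow from the lower level of most members and are no separate result about these roles. The counts of lower genes in each list stand beside 71.5% of all members and 17.8% of all genes. The list medians of the other 3 lines lay on both sides of 0.

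Genes for RNA processing and translation were low in SEM with little scatter. All 17 of 17 listed genes were members, 16 of them were lower in SEM by 1.5-fold or more, and the list median was -0.97. TPT1, a translationally controlled protein of growing cells, was the most abundant member per length, at an authors' FPKM (fragments per kilobase of transcript, scaled to depth) of 2744 with t(4;11) and 3070 without. Its level was 2301 CPM in RS4;11, 1304 in SEM, 1933 in NALM6 and 2402 in REH. TPT1 has near-identical copies elsewhere in the genome, so reads could have been shared. DIS3, the nuclease of the RNA exosome, was at 137, 69.1, 136 and 97.1 CPM in the order RS4;11, SEM, NALM6 and REH. DIS3 shares a Cuffdiff locus with BORA and PIBF1. RNASEH2B, a subunit of the enzyme that removes RNA from DNA, was at 166, 53.2, 130 and 203 CPM. In both genes SEM was the lowest line. The least affected of the list was EXOSC8, an exosome subunit, with an SEM ratio of -0.50.

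Ubiquitin and related modifiers had the lowest list median in SEM, -1.01 over 15 of 17 genes, with 12 lower by 1.5-fold or more and KCTD12 higher. CUL4A, the scaffold of a ubiquitin ligase used in DNA repair and replication, was at 133 CPM in RS4;11, 65.4 in SEM, 186 in NALM6 and 142 in REH. CDC16, a subunit of the anaphase-promoting complex, was at 63.5, 30.0, 57.7 and 61.4 CPM. MYCBP2, a very large ubiquitin ligase, was at 382, 185, 371 and 594 CPM. For all 3 genes every other line lay above SEM. TRIM13, a ligase of the endoplasmic reticulum in 13q14, was at 91.5, 34.9, 63.5 and 79.9 CPM.

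Cell cycle and DNA repair genes (14 of 15 listed) had an SEM median of -0.77, with 12 lower and 0 higher. TFDP1, the partner of E2F factors in driving S-phase genes, stood apart from its neighbours on the arm. It was at 386 CPM in RS4;11, 184 in SEM, 165 in NALM6 and 162 in REH, so that SEM lay slightly above both lines without t(4;11) and RS4;11 was the highest. ERCC5, an endonuclease of nucleotide excision repair, was at 8.02, 2.71, 6.62 and 6.93 CPM. ERCC5 shares its locus with 3 other entries, and its FPKM in the authors' deposited table (24.5 and 31.8) was high beside its counts. The part of shared reads in its CPM was not tested.

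The 13q14 stretch from SUCLA2 to RNASEH2B (18 of 23 listed genes were members) had an SEM median of -0.67, with 10 lower and 2 higher. RB1 itself differed little: 266 CPM in RS4;11, 221 in SEM, 285 in NALM6 and 209 in REH, with an SEM ratio of -0.27, and REH was the lowest line. Its authors' FPKM was 54.3 with t(4;11) and 51.4 without. LPAR6, a receptor for lysophosphatidic acid whose gene lies in an intron of RB1, went the other way, at 23.5, 55.9, 13.6 and 54.0 CPM. Reads of LPAR6 and RB1 cannot be fully told apart without strand. RCBTB2, their neighbour, was also highest in SEM (46.7, 71.9, 26.5 and 45.6 CPM). KPNA3, an importin that carries proteins into the nucleus, was at 99.9, 75.8, 108 and 113 CPM. SETDB2, a member of a histone methyltransferase family, was at 42.3, 20.8, 102 and 70.2 CPM. The noncoding DLEU1 was low in both lines with t(4;11), at 3.66 and 2.14 CPM, against 14.8 in NALM6 and 12.5 in REH. It passed the level threshold through the lines without t(4;11). DLEU2 did not pass the level threshold, and TRIM13 and DLEU1 share 1 Cuffdiff locus.

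Transcription and chromatin genes (17 of 20 listed) had an SEM median of -0.72, with 11 lower and 0 higher. ELF1, an ETS factor of lymphoid cells and among the most abundant members per length, was at 556 CPM in RS4;11, 421 in SEM, 291 in NALM6 and 361 in REH. Both lines with t(4;11) lay above both lines without it. ING1, a reader of histone methylation, was at 33.3, 17.4, 28.0 and 23.5 CPM. POU4F1 and ZIC2, factors best known from neurons, were nearly confined to 1 line. Both passed the threshold on the mean level only through REH, so a high level in 1 line follows from how they were chosen. POU4F1 had 0 counts in RS4;11 and SEM, 1 count in NALM6 and 38.8 CPM in REH. ZIC2 was at 1.93, 0.744 and 0.803 CPM in RS4;11, SEM and NALM6 and at 22.4 CPM in REH.

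Genes of mitochondria and metabolism (15 of 18 listed) had an SEM median of -0.89, with 11 lower and CARKD higher. SUCLA2, a subunit of succinyl-CoA synthetase, was at 46.2, 23.4, 50.9 and 50.3 CPM in RS4;11, SEM, NALM6 and REH, near-equal in the 3 lines other than SEM and with an SEM ratio of -1.07. Genes of the endoplasmic reticulum, Golgi and lysosome (16 of 19) had an SEM median of -0.76, with 10 lower and 0 higher. LAMP1, a lysosomal membrane protein, was at 102, 69.4, 86.2 and 83.0 CPM, a smaller step than at most members. WDFY2, an endosomal protein, had the lowest SEM ratio of that list (-1.92) and ALG5 the highest (0.23). IPO5, an importin for ribosomal proteins, was at 594, 318, 595 and 529 CPM.

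Immune, adhesion and signalling genes (15 of 21 listed) had an SEM median of -0.79, with 8 lower and 2 higher, while RS4;11 was lower in 6 and higher in 5. LCP1, the actin-bundling protein of white blood cells, was at 1520 CPM in RS4;11, 919 in SEM, 832 in NALM6 and 752 in REH, and here SEM was not the lowest line. IRS2, an adaptor of the insulin receptor, was at 27.1, 16.8, 37.5 and 55.2 CPM. TNFSF13B, which encodes the B-cell survival factor BAFF, did not pass the level threshold.

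**Figure D3:**
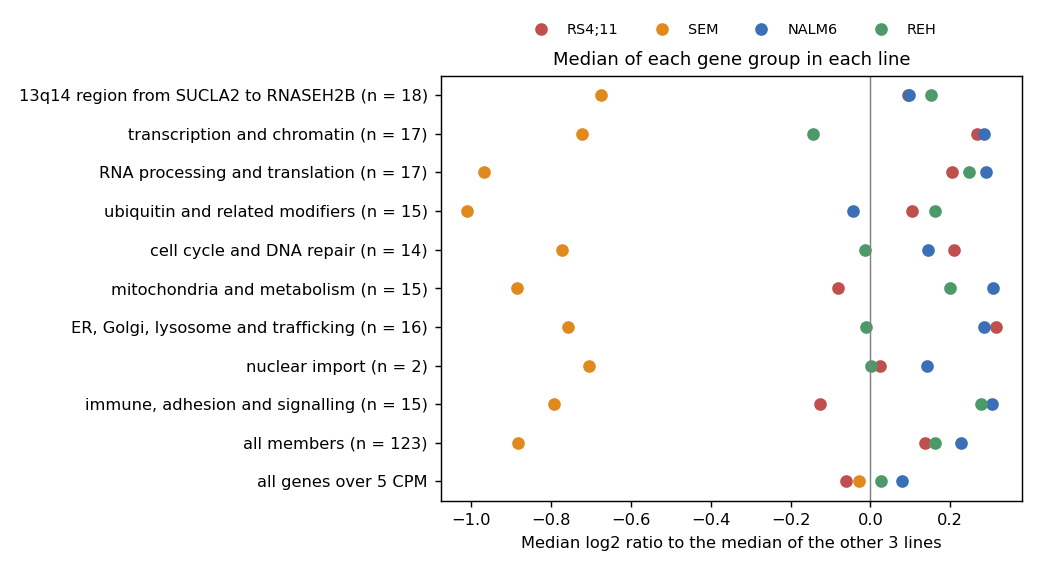
Median log2 ratio of each gene list to the median of the other 3 lines (x axis), with 1 point per line and the number of members in brackets (y axis). SEM lies between -1.01 and -0.67 in all 9 lists and at -0.03 over all genes, while the list medians of the other lines lie between -0.14 and 0.31.

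MIR17HG differed less between SEM and the other lines than most members: 43.1 CPM in RS4;11, 26.8 in SEM, 26.1 in NALM6 and 30.7 in REH, with an SEM ratio of -0.19. Its locus lies at 92,000,074 to 92,006,829 of chromosome 13 in hg19 and holds 7 entries of the table. These libraries measure the host transcript and not the mature microRNAs. The 6 mature microRNAs the host is known for are shown because the host's level bears on all of them at once. They are on the plus strand of chr13:91350618-91351382 in GRCh38.p14 (RefSeq), written 5′ to 3′ with the seed, bases 2 to 8, in capitals.
hsa-miR-17-5p: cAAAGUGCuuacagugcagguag
hsa-miR-20a-5p: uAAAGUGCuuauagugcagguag
hsa-miR-18a-5p: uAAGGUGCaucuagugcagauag
hsa-miR-19a-3p: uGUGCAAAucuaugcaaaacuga
hsa-miR-19b-3p: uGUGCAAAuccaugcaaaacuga
hsa-miR-92a-3p: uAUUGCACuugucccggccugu
miR-17-5p and miR-20a-5p share 1 seed, and miR-19a-3p and miR-19b-3p share another. miR-18a-5p and miR-92a-3p each have a seed that no other of the 6 has.

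Beside the lower level of most members in SEM, 12 members were under 1 CPM in at least 1 line. These are KBTBD7, KIAA0564, DNAJC15, KIAA0226L, PCDH9, POU4F1, FARP1, DOCK9, ZIC2, EFNB2, CARKD and FLJ41484. A threshold on the mean admits such genes on any chromosome. The share over all genes is not given, so the count cannot be read as a trait of this arm, and this was not tested. DNAJC15, a co-chaperone of protein import into mitochondria, was at 20.2 CPM in RS4;11 and 16.7 CPM in REH, and had 2 counts in SEM and 2 in NALM6. Its level thus differed within both groups. KBTBD7, an adaptor of a ubiquitin ligase, had the same pattern, at 6.42 CPM in RS4;11, 0.416 in SEM, 0.134 in NALM6 and 21.0 in REH, while KBTBD6 beside it was at 23.2, 10.8, 38.6 and 30.8 CPM. The pair is alike in sequence, so reads could have been shared. KBTBD7 passed the threshold on the mean level only through REH, so its high level there follows from how it was chosen.

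In REH, KIAA0564 (now VWA8, a mitochondrial ATPase) was at 0.285 CPM, against 52.7 in RS4;11, 28.1 in SEM and 63.2 in NALM6. In NALM6, EFNB2, a membrane-bound ephrin that signals between touching cells, was at 0.223 CPM, against 24.8 in RS4;11, 11.1 in SEM and 63.9 in REH. In RS4;11, CARKD (now NAXD), an enzyme that repairs damaged NADH, was at 0.308 CPM, against 20.6 in SEM, 13.3 in NALM6 and 22.1 in REH. Each of these genes was thus low in a different line and at 10 CPM or more in the other 3. FARP1, a guanine nucleotide exchange factor, was at 1.87 CPM in RS4;11, 41.3 in SEM, 0.892 in NALM6 and 39.9 in REH. It was 1 of 6 members higher in SEM by 1.5-fold or more, with LPAR6, RCBTB2, KCTD12, TEX30 and CARKD.

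Among the other members at the ends of the range, TSC22D1, a leucine zipper protein, was at 105 CPM in RS4;11, 35.1 in SEM, 62.4 in NALM6 and 32.6 in REH, so that SEM and REH were both low. ABCC4, a transporter of cyclic nucleotides and drugs, was at 44.9, 45.2, 55.7 and 18.3 CPM, and ATP11A, a flippase of membrane lipids, at 157, 82.9, 159 and 89.9 CPM. In ABCC4 the lowest line was REH, not SEM. LHFP was at 9.27, 2.35, 3.55 and 24.3 CPM, and FLJ41484 at 10.4, 5.86 and 34.4 CPM in RS4;11, SEM and REH with 3 counts in NALM6. TEX30 was highest in SEM, at 16.3, 30.2, 9.99 and 15.6 CPM.

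Of the genes nearly absent in a line, 3 promoters are shown, 1 for a gene at 2 counts in SEM and NALM6, 1 for a gene low in REH and 1 for a gene low in NALM6. The stretches are the 250 bases before the RefSeq start in GRCh38.p14, written 5′ to 3′ along the gene, with each CG dinucleotide in capitals. DNAJC15 is on the plus strand at chr13:43023336-43023585, KIAA0564 (VWA8) on the minus strand at chr13:41961110-41961359, and EFNB2 on the minus strand at chr13:106535663-106535912.
DNAJC15: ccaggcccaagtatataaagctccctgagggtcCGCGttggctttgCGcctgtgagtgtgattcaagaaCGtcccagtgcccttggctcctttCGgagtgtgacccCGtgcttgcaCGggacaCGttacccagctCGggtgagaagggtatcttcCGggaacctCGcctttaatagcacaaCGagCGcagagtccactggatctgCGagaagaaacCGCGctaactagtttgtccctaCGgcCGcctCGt
KIAA0564: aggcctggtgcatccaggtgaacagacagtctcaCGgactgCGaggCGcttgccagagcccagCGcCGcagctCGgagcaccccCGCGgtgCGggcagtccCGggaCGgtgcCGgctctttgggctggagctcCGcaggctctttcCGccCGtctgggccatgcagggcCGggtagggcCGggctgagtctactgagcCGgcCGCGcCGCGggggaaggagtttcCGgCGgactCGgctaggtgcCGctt
EFNB2: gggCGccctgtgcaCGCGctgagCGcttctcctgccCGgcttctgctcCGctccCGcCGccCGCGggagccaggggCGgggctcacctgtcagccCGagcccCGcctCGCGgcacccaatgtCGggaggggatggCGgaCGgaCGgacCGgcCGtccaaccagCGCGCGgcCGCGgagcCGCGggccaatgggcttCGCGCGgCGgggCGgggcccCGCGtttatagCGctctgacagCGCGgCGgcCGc
They hold 19, 26 and 40 CG dinucleotides. Of the 123 members 108 matched a promoter in the table. Their median was 23 CG per 250 bases and 86.1% had at least 10, against a median of 11 and 52.0% over 27326 promoters of all genes. The sets are unlike, because the members were chosen by level and the 27326 promoters were not. The part of that choice in the gap was not tested. The 10 matched members with a line under 1 CPM had a median of 27.5. CG reads the same on both strands, and its number describes the sequence and no state of it in these cells.

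**Figure D4:**
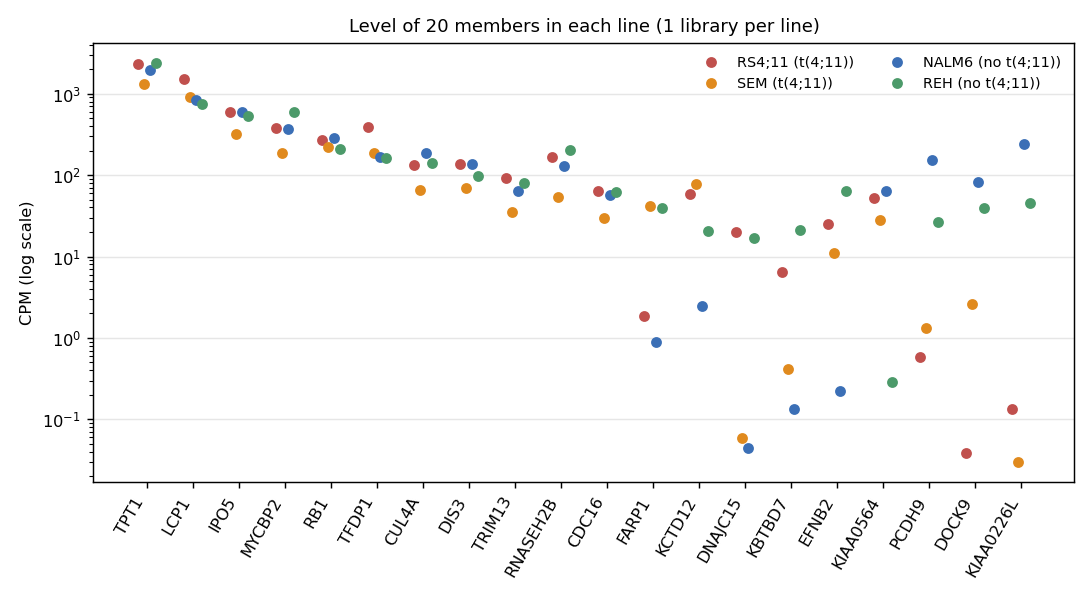
CPM of 20 members in each of the 4 lines on a log axis (y axis), with 1 point per library and genes along the x axis. In the abundant genes on the left the points of SEM lie mostly lowest. Most of the genes on the right, such as KIAA0564 with 0.285 CPM in REH, are near absent in 1 or more lines.

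The design contrasts lines with and without t(4;11). In edgeR's quasi-likelihood test over the 4 lines, 122 members were tested (POU4F1 did not pass the filter on low counts) and 0 were called at an adjusted p under 0.05, as over all 13814 tested genes (0%). The smallest adjusted p of a member was 0.310 (KIAA0226L, edgeR with Benjamini-Hochberg adjustment). At an unadjusted p under 0.05, edgeR had 8 members lower with t(4;11) and 0 higher, against 5.86% lower and 6.19% higher over all genes. DESeq2 called 8 of 123 members (6.50%) and 11.6% of all genes with an adjusted p. edgeR's exact test called 2 of 122 (1.64%) and 2.95% of all genes, so neither share of members exceeded that of all genes. The median log2 fold change of the members was -0.30, with t(4;11) over without, and -0.02 over all genes. This median rested on SEM: it was 0.08 without SEM and -0.90 without RS4;11.

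The 8 members at an unadjusted p under 0.05 were KIAA0226L, SETDB2, DLEU1, WDFY2, NEK3, PCDH9, TBC1D4 and PCCA. The mean over the t(4;11) lines was 0.0823 CPM for KIAA0226L, 0.958 for PCDH9, 2.90 for DLEU1 and 4.90 for NEK3. These genes passed the threshold of 5 CPM through the lines without t(4;11). A lower level with t(4;11) thus follows in part from how they were chosen. KIAA0226L (now RUBCNL), a regulator of autophagy, had 7 counts in RS4;11 and 1 in SEM, against 241 CPM in NALM6 and 45.9 in REH. PCDH9, a protocadherin of cell adhesion, was at 0.578 CPM in RS4;11, 1.34 in SEM, 153 in NALM6 and 26.3 in REH. With t(4;11) it was lower by a fitted log2 of -6.45 (edgeR adjusted p 0.315). PCCA, a subunit of propionyl-CoA carboxylase, was at 5.51, 7.05, 21.0 and 22.7 CPM, a fitted log2 difference of -1.70 ± 0.38 (SE, n = 2 lines a group; adjusted p by edgeR 0.337). WDFY2 was at 15.2, 7.79, 32.3 and 40.9 CPM, and NEK3, a kinase, at 5.22, 4.58, 14.8 and 14.6 CPM. TBC1D4, which controls glucose transporter traffic, was at 70.5, 44.1, 217 and 111 CPM. In each of these genes both lines with t(4;11) lay below both lines without, but the difference did not pass the test.

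Over the 123 members, the groups did not overlap with both t(4;11) lines lower in 47 (38.2%, against 28.6% of all genes) and with both higher in 7 (5.69%, against 19.9%). The 7 were ALG5, ELF1, LCP1, RCBTB2, KCTD12, TEX30 and TFDP1. SEM alone was the lowest line in 74.0% of members, against 26.1% of all genes, and such a member cannot be higher in both t(4;11) lines. The median ratio of RS4;11 was 0.14. The part of SEM in the shares without overlap was not tested. In the authors' deposited DESeq table, DOCK9 was lower with t(4;11) (adjusted p 0.00212) and KCTD12 higher (adjusted p 0.00318), 1 member each way. Over all genes that table called 0.631% lower and 0.931% higher. DOCK9, an exchange factor for the small GTPase CDC42, had 2 counts in RS4;11 and was at 2.59 CPM in SEM, 82.5 in NALM6 and 39.0 in REH. DOCK9 is a member only through the lines without t(4;11), so its lower level with t(4;11) follows in part from that choice. KCTD12, an auxiliary subunit of GABA-B receptors, was at 58.9, 77.9, 2.47 and 20.5 CPM. In the authors' deposited Cuffdiff table, 2 members were lower with t(4;11), PCDH9 (q 0.0232) and POU4F1 (q 0.00418, listed at 0 with t(4;11)), and 0 were higher. POU4F1 is a member only through its level in REH. Over all genes that table called 1.12% lower and 1.22% higher. No member was called in both deposited tables, and none of the 4 was called by edgeR's quasi-likelihood test.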

How the data were processed

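Messenger RNA of 4 cell lines was sequenced, 1 library each, from TRI Reagent extracts with a TruSeq RNA kit, per the labels' protocols. The kit does not mark strand. Tools named in the submitters' processing notes, without roles, are Cuffdiff, DESeq, HTSeq, TopHat, TopHat2 2.0.4 and CASAVA 1.8.2, with build hg19. The annotation and settings were not given in the sources used here. The larger deposited table (23368 entries) holds, per the file headers, HTSeq counts, the authors' DESeq normalized counts (a signal scaled per line), a fold change (ratio), p-values and adjusted p-values. The other deposited table (23284 entries) holds, per the file headers, Cuffdiff loci, FPKM per group, log2 fold change, a test statistic (score), p-values and q-values. Deposited fold changes were turned so that positive means higher with t(4;11).

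Tables were joined by symbol. CPM is the count over the column sum, and ratios used a pseudocount of 1 CPM. edgeR 4.0.16 (R 4.3.3; TMM, filterByExpr, glmQLFit and glmQLFTest, two-sided, Benjamini-Hochberg at 0.05) was fitted on all 4 lines over 13844 genes, of which 13814 were in the join, with 2 residual degrees of freedom. SE is the log2 fold change over the square root of F. DESeq2 1.42.0, edgeR's exact test, other scalings, filters, windows and folds, and leaving out each line were alternatives; those on steady members, single-gene loci, near-identical copies and unadjusted p were added after seeing the data. Scripts were tested on simulated data. Loci are the authors' in hg19, counted from 1; 26 members share a locus with another entry. Promoters and microRNAs are RefSeq's (GRCh38.p14).

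Groups follow the labels; replicate numbers follow listing order. Members and lists were chosen with earlier results of these data known. Genes named are the 6 lowest and highest ratios per line, genes at an unadjusted p under 0.05 or called by the authors, list extremes and well-known members, the first and last member and those nearest the threshold. Genes left out by symbol are not reported here. Figures used matplotlib 3.10.9.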

Additional observations from a re-analysis of the deposited data

How the results depend on the processing

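The median of SEM stayed between -0.97 and -0.83 over all 15 alternatives run, and its 88 lower members between 84 and 97 except with a mean over 20 CPM (71 of 102) or a 2-fold limit (47). The medians of the other lines moved more. RS4;11 was at 0.25 with TMM-scaled library sizes, 0.24 with the authors' DESeq normalized counts and 0.64 over its 22 steady members, and REH was at -0.0106 over its 12 steady members. Leaving out 1 line at a time, RS4;11 ranged from -0.0467 to 0.31, NALM6 from -0.00828 to 0.39 and REH from -0.0429 to 0.39, each lowest (with the sign turned) without SEM. Scaling moved the median of all genes by less than 0.1 in each line.

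Counts of members moved with the limits. At 2-fold, lower and higher members were 10 and 10 in RS4;11, 47 and 3 in SEM, 8 and 12 in NALM6, and 3 and 19 in REH. With a limit of 0.32 on the log2 scale they were 27 and 45 in RS4;11, 21 and 46 in NALM6, and 17 lower in REH. With a mean over 1 CPM, 12 were higher in SEM and 20 lower in NALM6, with a mean over 20 CPM 6 were lower in NALM6, and with at least 1 line over 5 CPM 12 were higher in SEM. Without 1 line, lower members ranged from 11 to 29 in RS4;11 and from 5 to 15 in REH, and higher members from 17 to 37 in RS4;11, from 14 to 40 in NALM6 and from 17 to 45 in REH.

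Between the groups, DESeq2 called 8 members (6.50%, all genes 11.6%), edgeR's exact test 2 (1.64%, all genes 2.95%), and 8 passed an unadjusted p under 0.05. The median log2 fold change ranged from -0.90 without RS4;11 to 0.0782 without SEM, where its sign turned. Over 15 neighbours, the lowest running median was -0.12 in RS4;11, -1.21 in SEM and -0.0395 in REH, and the highest 0.32 in RS4;11 and 0.50 in NALM6. In windows of 5 Mb, 21.4% of medians were below 0 in NALM6 and 7.14% in REH. The cause of these moves was not tested. No paired analysis was possible because the replicate numbers follow listing order and pair no lines. With 1 library per line, depth limits how exactly the level of a member with few counts is known, such as DNAJC15 in SEM.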
